A study of Mus musculus with 3 samples.

Results

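The transcripts described here belong to glycolysis, from glucose uptake to lactate, in mouse embryonic stem cells exposed to the adenosine analogue tubercidin. The 10 genes were chosen by symbol (Slc2a1, Gpi1, Aldoa, Tpi1, Gapdh, Pgk1, Pgam1, Eno1, Pkm and Ldha) out of 32285 genes listed for each library, and all 10 were found. The symbol Aldoa is carried by 2 identifiers, of which the one with most unique molecular identifiers (UMIs, each standing for 1 captured RNA molecule) was used. The other held 72 UMIs over all cells. By GENCODE M21 (GRCm38) the genes are spread over chromosomes 4 (Slc2a1 and Eno1), 6 (Tpi1 and Gapdh), 7 (Gpi1, Aldoa and Ldha), 9 (Pkm), 19 (Pgam1) and X (Pgk1), and all are protein-coding. Hexokinase and phosphofructokinase genes are not among the 10 and are given with the surrounding genes.

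The cells were E14 embryonic stem cells on a 129/Ola background, an established line. Their medium held leukaemia inhibitory factor and 15% fetal bovine serum. It also contained sodium pyruvate, the end product of glycolysis, betamercaptoethanol and antibiotics, the same for all 3 libraries. From 24 h after seeding they received 10 uM tubercidin for 3 h or 6 h, and the control cells received DMSO, the solvent, for 6 h. No control of 3 h was among the samples. Each of the 3 conditions was 1 droplet library of polyadenylated RNA, so no difference was tested. Every interval given is exact at the 95% level and reflects counting error alone.

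Glycolysis splits glucose into pyruvate in the cytosol and yields ATP without oxygen. Pluripotent cells in culture are known for running it at a high rate and for turning much of the pyruvate into lactate. Many of its genes are known targets of the hypoxia-inducible factor HIF1 and of MYC. Transcript levels do not measure the flux through the pathway.

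Cells were called within each library by a UMI minimum, which left 2031 cells in the control library, 2365 in the 3 h library and 2926 in the 6 h library. They held 104892739, 29892000 and 24681924 UMIs, or 51646, 12639 and 8435 UMIs for the mean cell. Depth per cell therefore differed several-fold between libraries, and differences in RNA content and in sequencing depth cannot be told apart. Any 2 of the libraries shared 1 cell barcode. All 8 embryonic stem cell markers were detected in every library and summed to 4069, 4838 and 3504 UMIs among 1000000 UMIs of the cells (CPM) in the control, 3 h and 6 h. Dppa5a alone made up 2549, 3555 and 2263 CPM of these sums. Sox2 (205, 80.6 and 81.1 CPM), Nanog, Zfp42 and Klf4 were below the control at both times. Pou5f1 and Esrrb were above it at both. The 6 primitive endoderm markers summed to between 6.69 and 10.8 CPM, the 6 trophoblast markers to between 9.23 and 13.6 CPM, of which Tfap2c made up between 7.93 and 12.0 CPM, the 6 fibroblast markers to between 0.829 and 1.94 CPM and the 6 markers of 2-cell-like cells to at most 1.13 CPM. In the last list all 6 were at 0 UMIs at 3 h, and 4 and 2 at 0 in the control and at 6 h.

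Together the 10 genes took 0.556% of the UMIs of control cells, with Clopper-Pearson bounds of 0.555 and 0.557%. The share was 0.821% after 3 h (bounds 0.818 and 0.824%) and 0.676% after 6 h (bounds 0.673 and 0.679%). Their summed share was thus 1.48-fold the control's at 3 h and 1.22-fold at 6 h. Gapdh alone made up 43.1%, 54.2% and 46.6% of these UMIs. Without it, a choice made after its values were seen, the other 9 genes took 0.317%, 0.376% and 0.361% of the UMIs, 1.19-fold and 1.14-fold the control's share. In UMIs per cell the control was highest, since the treated cells held fewer UMIs in all: the mean cell had 287, 104 and 57.0 UMIs of the 10 genes in the control, 3 h and 6 h.

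The genes did not move as 1 block. As a share of their library, Gapdh, Gpi1, Tpi1, Pkm, Aldoa and Pgam1 stood above the control at both times, and Eno1 and Slc2a1 stood below it at both. Pgk1 stood above the control at 3 h and slightly below it at 6 h, and Ldha was level with it at 3 h and below it at 6 h. Per cell, all 10 were lower than in the control at both times.

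**Figure D1:**
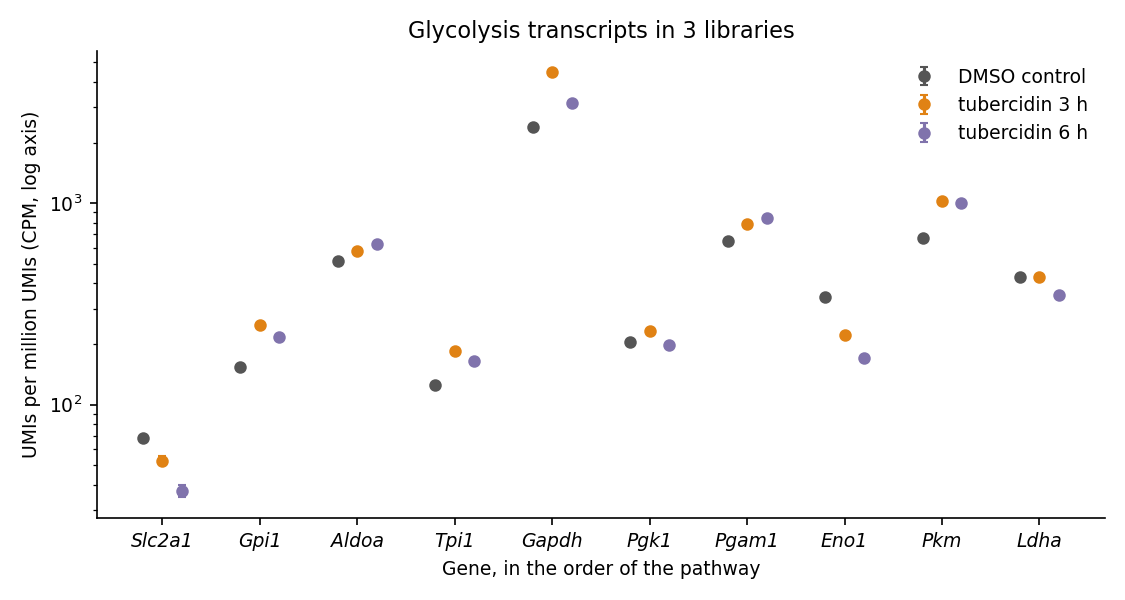
Level of each gene (CPM over called cells, log axis) in the DMSO control (grey), after 3 h (orange) and after 6 h (purple) of tubercidin, 1 library each, with exact 95% Poisson intervals for counting error, mostly smaller than the points. Slc2a1 and Eno1 step down from the control to 6 h as shares of their libraries, while Gapdh peaks at 3 h; in UMIs per cell all 10 genes were lower after tubercidin.

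Slc2a1 encodes the glucose transporter GLUT1, which brings glucose into the cell. Its levels in the control, 3 h and 6 h libraries were 68.0, 52.7 and 37.4 CPM, from 7135, 1576 and 922 UMIs. Its log2 ratio of CPM + 1 to the control was -0.36 at 3 h and -0.85 at 6 h, and the counting intervals of the ratio without the added 1 ran from -0.45 to -0.29 and from -0.97 to -0.77. The 3 levels fell in one order, control, 3 h, 6 h, with intervals that did not overlap. Only 25.8% of the cells at 6 h held a UMI of it, against 91.6% of the control cells. After every cell was thinned to 4000 UMIs the shares were 14.0% and 23.0%, with 18.9% at 3 h. No cell type without GLUT1 was present to measure the background of such shares.

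Gpi1 encodes glucose-6-phosphate isomerase, the enzyme that turns glucose 6-phosphate into fructose 6-phosphate. Its levels were 154, 249 and 217 CPM in the same order. The log2 ratios to the control were 0.69 (counting interval 0.65 to 0.73) at 3 h and 0.49 (0.45 to 0.54) at 6 h. Both treated libraries were above the control, and 3 h was above 6 h. Per cell it had 7.97, 3.15 and 1.83 UMIs.

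Aldoa, aldolase A, splits fructose 1,6-bisphosphate into 2 triose phosphates, and Tpi1, triose phosphate isomerase, makes them interchangeable. Aldoa stood at 518, 581 and 630 CPM, so its share was highest at 6 h. Its log2 ratios to the control were 0.16 (0.14 to 0.19) and 0.28 (0.26 to 0.31). Tpi1 stood at 126, 184 and 165 CPM, with log2 ratios of 0.54 (0.50 to 0.59) and 0.39 (0.34 to 0.44). Unlike Aldoa it was highest at 3 h.

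Gapdh, glyceraldehyde-3-phosphate dehydrogenase, makes the NADH of the pathway and is often used as a reference transcript. Control cells held it at 2394 CPM (Poisson interval 2385 to 2404), against 4454 CPM after 3 h (4430 to 4478) and 3152 CPM after 6 h (3130 to 3174). Its log2 ratio of 0.90 at 3 h was the highest of the 10 genes and lay above 98.8% of all genes tested. At 6 h the ratio to the control was 0.40, and the ratio of 6 h to 3 h, at -0.50, was the lowest of the 10. The mean cell held 124, 56.3 and 26.6 Gapdh UMIs, so the direction depends on whether levels are read per library total or per cell.

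Pgk1, phosphoglycerate kinase, carries out the first step that yields ATP. It stood at 204, 231 and 198 CPM. The log2 ratio to the control was 0.18 at 3 h (0.14 to 0.22) and -0.05 at 6 h (-0.09 to -0.0036). Pgam1, phosphoglycerate mutase, stood at 648, 786 and 843 CPM, with ratios of 0.28 (0.26 to 0.30) and 0.38 (0.36 to 0.40). Pgam1 and Aldoa were the pair among the 10 with their highest share at 6 h; this order held under CPM, and under median-of-ratios and TMM factors, which rescale each library by its typical gene, both stood lower at 6 h than at 3 h.

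Eno1, enolase 1, forms phosphoenolpyruvate. Control cells held it at 344 CPM (340 to 347), against 222 CPM after 3 h (217 to 228) and 170 CPM after 6 h (164 to 175). The log2 ratios to the control were -0.63 (-0.67 to -0.59) and -1.02 (-1.07 to -0.97), the lowest of the 10 genes at both times. Its neighbours in the pathway, Pgam1 and Pkm, were above the control in both libraries. Per cell Eno1 had 17.8, 2.81 and 1.43 UMIs, 6.32-fold and 12.4-fold lower than in the control. The near-identical retrogene Eno1b, whose reads may not be separable from those of Eno1, was listed at 27.0, 24.7 and 34.1 CPM, and adding it to Eno1 gave ratios of -0.58 and -0.86.

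Pkm encodes muscle-type pyruvate kinase, whose splice forms these counts do not separate. It stood at 675, 1020 and 999 CPM, with log2 ratios of 0.59 (0.57 to 0.61) at 3 h and 0.56 (0.54 to 0.59) at 6 h. The 3 h and 6 h levels were 0.03 apart on the log2 scale, and their ratio's counting interval ended at -0.0057. Ldha, lactate dehydrogenase A, turns pyruvate into lactate. It stood at 428, 431 and 349 CPM. As a share of the library its 3 h level was within counting error of the control, with a log2 ratio of 0.01 (-0.02 to 0.04), while median-of-ratios and TMM factors put it above the control, at 0.25 and 0.20. At 6 h the ratio was -0.29 (-0.33 to -0.26).

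These ratios were set beside those of all 7884 genes whose mean level across the 3 libraries reached 10 CPM, a filter that all 10 genes passed. At 3 h the median log2 ratio to the control was 0.23 for the 10 genes and -0.27 for all genes, with 8 of the 10 above the median gene. By a rule of size, 3 of the 10 were at least 1.5-fold higher (Gapdh, Gpi1 and Pkm), against 3.61% of all genes, and 1 was at least 1.5-fold lower (Eno1), against 24.5%. Pkm lay at the limit and missed it with equal weight for each cell (log2 ratio 0.57) and without cells of many UMIs (0.58). Eno1 missed it with thinned cells (-0.51) and with the UMIs of Eno1b added (-0.58), and with thinned cells 4 of the 10 were at least 1.5-fold higher. None of the 10 was 2-fold higher or 2-fold lower, where all genes gave 0.888% and 5.54%. Counting intervals lay above 0 for 7 of the 10, against 21.5% of all genes, and below 0 for 2, against 65.5%. On the scale of all genes the ratios ran from the percentile 21.4 for Eno1 and 42.0 for Slc2a1 to 98.8 for Gapdh. Median-of-ratios and TMM factors moved the median of all genes by 0.23 and 0.19. With either, Gapdh was more than 2-fold higher, where 139 and 126 of the 7884 genes were at least 2-fold higher. The number of the 10 past 1.5-fold became 4 above and 0 below the control. The shares of all genes were then 8.98% above and 11.4% below under median-of-ratios factors, and 7.39% and 13.6% under TMM factors.

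At 6 h the medians were 0.33 for the 10 genes and -0.12 for all genes. The mean log2 ratio of the 10 genes went the other way than their median, from 0.24 at 3 h to 0.03 at 6 h. As shares of the library, 8 of the 10 were lower at 6 h than at 3 h. At 6 h, 7 of the 10 lay above the median gene. That number was 6 at a mean of at least 50 CPM, without a filter on low levels or in UMIs per cell. Eno1 alone was at least 2-fold lower, against 4.41% of all genes, and 0 of the 10 were at least 2-fold higher, against 2.33%. Eno1 lay at that limit: it no longer passed with thinned cells (log2 ratio -0.996), nor with the UMIs of Eno1b added (-0.86). At 1.5-fold, Eno1 and Slc2a1 were lower, against 16.9% of all genes, and 0 of the 10 were higher, against 7.06%. Slc2a1, at -0.85, was the next below the 2-fold limit. Counting intervals lay above 0 for 6 of the 10, against 31.7% of all genes, and below 0 for 4, against 51.9%. The percentiles ran from 4.03 for Eno1 and 7.38 for Slc2a1 to 92.4 for Pkm.

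Between 3 h and 6 h the glycolysis genes lay lower on the scale of all genes. Their median log2 ratio was -0.21, against 0.14 for all genes, and 0 of the 10 were above the median gene (2 with equal weight for each cell, with thinned cells or without a filter on low levels). Aldoa at 0.12 and Pgam1 at 0.10 were nearest to it, and Gapdh at -0.50 and Slc2a1 at -0.49 farthest. None reached 1.5-fold in either direction, where all genes gave 8.51% higher and 1.67% lower, and 1.64% and 0.165% past 2-fold. Counting intervals lay above 0 for 2 of the 10, against 51.2% of all genes, and below 0 for 8, against 19.7%. Under median-of-ratios and TMM factors, which moved the median of all genes by -0.22 and -0.21 here, 3 of the 10 were at least 1.5-fold lower, against 6.06% and 5.92% of all genes. The 3 comparisons share libraries, so they are not independent of each other.

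**Figure D2:**
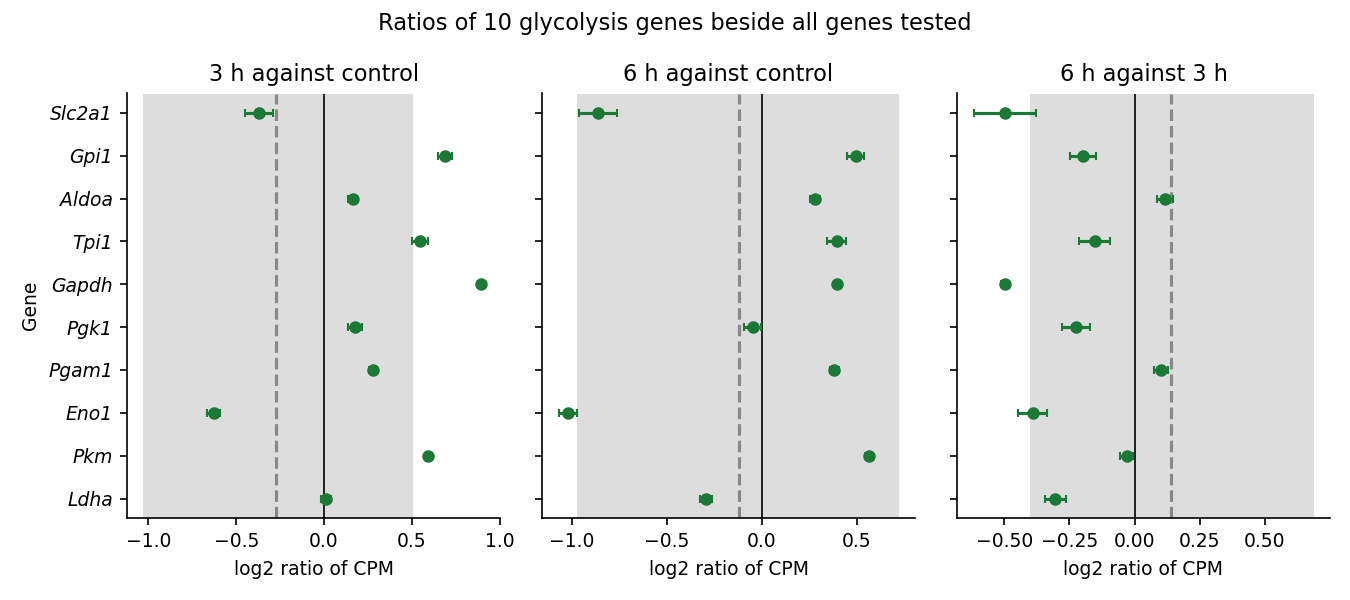
Log2 ratio of CPM, without a pseudocount, of each gene in the 3 comparisons (points, with exact 95% counting intervals), beside the 5th to 95th percentile of the 7884 genes tested (grey band) and their median (dashed line). At 3 h, 8 of the 10 points lie right of the dashed line, at 6 h 7, and for 6 h against 3 h none; the solid line at 0 shifts against the points when libraries are scaled otherwise, and in UMIs per cell all 10 points lie left of 0.

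Each gene was lower per cell after tubercidin, and the extent varied by gene. At 3 h the mean cell held between 2.20-fold (Gapdh) and 6.32-fold (Eno1) fewer UMIs of a gene than the mean control cell, and at 6 h between 4.14-fold (Pkm) and 12.4-fold (Eno1) fewer. Ldha was 4.06-fold and 7.51-fold lower, and Slc2a1 5.27-fold and 11.1-fold lower. For the 10 genes summed the values were 2.77-fold and 5.04-fold. These folds carry the difference in depth in full. Per cell, 99.5% of all genes tested were at least 1.5-fold lower at 3 h and 99.6% at 6 h. The median log2 ratio of all genes was -2.16 and -2.53, beside -1.79 and -2.27 for the 10 genes.

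Promoter sequence was one property on which the genes were not chosen. The windows from 250 bases before to 50 bases after each RefSeq start site (GRCm38.p6, the same assembly as the mm10 build named in the submitters' processing notes) were available for all 10 genes, 16 windows in all. They were rich in G and C, with a median of 65.0% against 52.7% over 32851 windows of all genes. The letters ACGTG or GCGTG, which lie at the core of hypoxia response elements, occurred on either strand in 12 of the 16 windows and in 43.8% of all windows. GGGCGG, the GC box, occurred in 11 of the 16 and in 35.7% of all. CACGTG, the E-box that MYC and other factors bind and that contains ACGTG on both strands, occurred in 1 of the 16 (Ldha) and in 7.15% of all. Windows of 1 gene can overlap, and short letters occur more often in windows rich in G and C, so these shares describe the windows only.

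The first listed windows of the pair with the highest and the pair with the lowest log2 ratio at 3 h are shown to set sequences of genes that went apart beside each other, 5′ to 3′ along the gene, with ACGTG or GCGTG on either strand in capitals. They lie at chr6:125165724-125166023 on the minus strand (Gapdh), chr7:34230287-34230586 on the minus strand (Gpi1), chr4:150236458-150236757 on the plus strand (Eno1) and chr4:119108495-119108794 on the plus strand (Slc2a1).
Gapdh: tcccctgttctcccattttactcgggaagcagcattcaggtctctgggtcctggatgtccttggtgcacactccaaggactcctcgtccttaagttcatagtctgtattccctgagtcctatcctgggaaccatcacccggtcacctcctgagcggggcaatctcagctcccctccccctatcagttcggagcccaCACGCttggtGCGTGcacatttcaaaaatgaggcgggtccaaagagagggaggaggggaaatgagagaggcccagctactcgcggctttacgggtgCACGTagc
Gpi1: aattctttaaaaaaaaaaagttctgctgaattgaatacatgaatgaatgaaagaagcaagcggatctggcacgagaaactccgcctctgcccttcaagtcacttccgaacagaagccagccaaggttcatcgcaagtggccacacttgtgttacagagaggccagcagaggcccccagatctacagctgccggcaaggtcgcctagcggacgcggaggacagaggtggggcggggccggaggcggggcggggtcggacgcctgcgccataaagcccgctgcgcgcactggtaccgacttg
Eno1: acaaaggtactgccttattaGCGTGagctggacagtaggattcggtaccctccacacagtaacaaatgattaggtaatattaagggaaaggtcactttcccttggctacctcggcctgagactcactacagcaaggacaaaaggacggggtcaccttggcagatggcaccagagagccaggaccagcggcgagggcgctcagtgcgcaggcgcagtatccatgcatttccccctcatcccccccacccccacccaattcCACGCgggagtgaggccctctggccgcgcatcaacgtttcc
Slc2a1: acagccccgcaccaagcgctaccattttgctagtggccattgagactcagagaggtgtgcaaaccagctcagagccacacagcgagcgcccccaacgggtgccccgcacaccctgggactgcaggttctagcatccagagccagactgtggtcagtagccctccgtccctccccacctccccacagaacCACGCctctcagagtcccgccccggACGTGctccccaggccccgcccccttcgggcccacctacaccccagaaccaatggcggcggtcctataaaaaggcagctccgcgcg
Gapdh held these letters 3 times, Eno1 and Slc2a1 2 times each and Gpi1 0 times. Over the first windows of all 10 genes, that of Ldha held them most often, 7 times. In this count each of its 2 CACGTG stretches was counted on both strands.

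Differences between the libraries were also visible cell by cell. After thinning to 4000 UMIs, which left out 0, 122 and 284 cells too shallow for it, the median cell held 21 UMIs of the 10 genes in control cells, 33 after 3 h and 26 after 6 h. The central 80% of cells ran from 15 to 30, from 22 to 43 and from 18 to 37 UMIs. The distributions had 1 main peak each, and they overlapped widely. The variance of Gapdh UMIs over thinned cells divided by their mean, its Fano factor, was 1.44, 1.98 and 2.14. Counting alone gives values near 1, and 987 genes with a mean of at least 0.5 UMI had medians of 1.07, 1.09 and 1.08. Gapdh, with far higher means of 9.47, 17.5 and 12.7 UMIs, lay at the percentiles 93.8, 96.3 and 98.0 of these genes. The Fano factors of Eno1 were 1.09, 1.05 and 1.04, and those of Pgk1 0.991, 1.10 and 1.02.

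**Figure D3:**
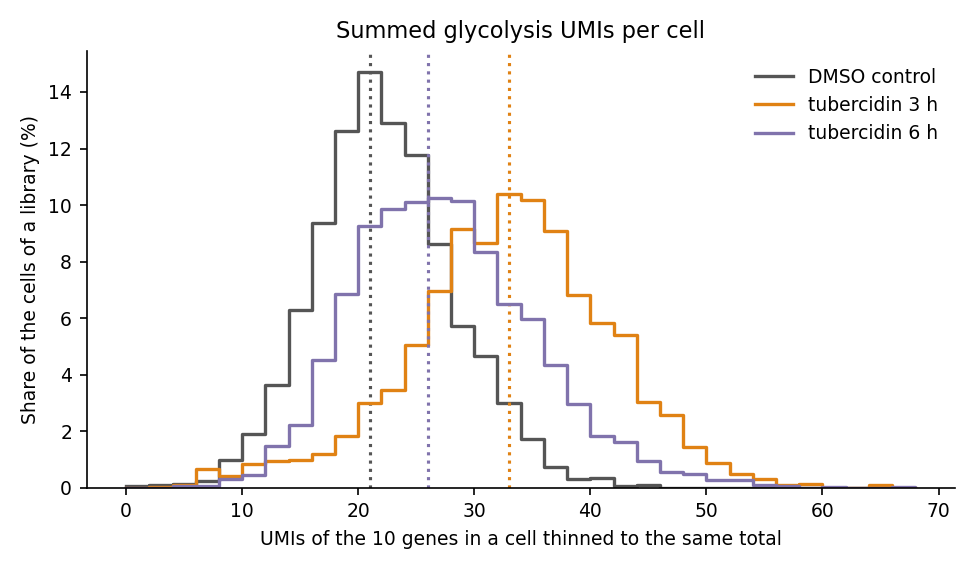
Distribution over cells of the summed UMIs of the 10 genes (horizontal axis) after every cell was thinned to 4000 UMIs, as the share of the cells of a library in bins of equal width (vertical axis, %), with dotted medians. The control (grey, median 21), 6 h (purple, 26) and 3 h (orange, 33) overlap, and the 3 h curve has a low shoulder of cells with few of these UMIs.

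Within a library the thinned UMIs of the genes varied together only weakly. Over thinned cells, which share a fixed total and therefore constrain each other, the 45 pairs of genes had a median Pearson r of 0.03 in 2031 control cells, 0.05 in 2243 cells at 3 h and 0.03 in 2642 cells at 6 h. The highest r belonged to Aldoa with Gapdh among control cells (0.12) and 3 h cells (0.20), and to Gapdh with Pkm among 6 h cells (0.19). The r of Gapdh with the sum of the other 9 genes was 0.19, 0.27 and 0.27, and that of Slc2a1 was 0.03, 0.01 and 0.01. Counting error lowers r where UMIs are few, so low r does not show that levels vary apart. Thinned cells held means of 0.27, 0.22 and 0.15 UMI of Slc2a1, against 9.47, 17.5 and 12.7 of Gapdh, so the r of these genes cannot be compared. Outside the 10 genes, the 5 with the highest r with their sum over control cells were Ftl1-ps1 (0.26), a ferritin pseudogene whose reads may belong to its parent gene, the ribosomal protein genes Rpsa (0.23), Rps20 (0.23) and Rpl41 (0.22), and the tubulin gene Tuba1b (0.22). In the treated cells larger r occurred, among them those of the ribosomal protein genes Rps20 (0.45) and Rplp0 (0.45) at 3 h and of Rpl15 (0.37), Rack1 (0.33) and Hsp90aa1 (0.33) at 6 h. These genes were named after their values were seen. The summed UMIs of the 10 genes had an r of -0.30, -0.43 and -0.21 with those of mitochondrially encoded genes.

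Summed, the glycolysis genes took a smaller share in barcodes with much mitochondrial RNA. In the 26, 131 and 51 barcodes of cell size with over 10% mitochondrial UMIs the 10 genes took 0.278%, 0.317% and 0.287% of the UMIs, against 0.557%, 0.830% and 0.678% in the remaining cells of the control, 3 h and 6 h. At 3 h the log2 ratios of these barcodes to the remaining cells ran from -2.25 for Gapdh to -0.24 for Pgam1, and the counting interval of Slc2a1 crossed 0. In the other libraries Slc2a1 was higher in such barcodes, with log2 ratios of 0.77 in the control and 1.27 at 6 h from 44 and 12 UMIs, and Gpi1 in the control had 0.25 (-0.11 to 0.59). The lowest ratios there were -1.74 for Tpi1 in the control and -2.03 for Gapdh at 6 h. All genes tested had medians of 0.35, 0.64 and 0.42 for these ratios in the control, 3 h and 6 h. Against them Slc2a1 lay at the percentiles 65.1 in the control and 80.4 at 6 h, and Gpi1 in the control at 46.5. Leaving such barcodes out of every library gave a median log2 ratio to the control of 0.23 for the 10 genes at 3 h, the same value as with them.

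The order of the libraries was the same in the cells with few and in those with many UMIs for their own library. When the cells of each library were ranked by UMIs and split into 3 equal parts, the 10 genes summed to 5351 CPM in the part with fewest and 5635 CPM in the part with most UMIs in the control. The sums were 7546 and 8356 CPM for 3 h, and 6594 and 6818 CPM for 6 h. Gapdh stood at 4070 CPM in the lowest and 4510 CPM in the highest part at 3 h, both far above its 2337 and 2434 CPM in the control. Eno1 stood at 332 and 344 CPM in the control and at 160 and 173 CPM at 6 h. Compared part by part, the median log2 ratio of the 10 genes to the control was 0.17, 0.22 and 0.25 at 3 h and 0.36, 0.32 and 0.31 at 6 h, from few to many UMIs. The parts do not match depth between libraries. The median cell held 37199 UMIs in the lowest part of the control, against 17331 and 11322 in the highest parts at 3 h and 6 h.

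The other genes of glycolysis and pyruvate handling did not share the high positions of Gapdh and Gpi1 throughout. Of 28 such genes listed, 13 reached a mean of 10 CPM, whose log2 ratios to the control had medians of -0.16 (3 h) and 0.08 (6 h), beside -0.27 and -0.12 for all genes. None of the 13 was 2-fold higher or lower at either time. Hk2, a hexokinase that traps glucose in the cell, stood at 272, 139 and 217 CPM. Its log2 ratios of -0.96 and -0.33 were the lowest of the 13 at both times. Hk1 was at 21.5, 15.2 and 22.8 CPM. Eno3, a second enolase, was at 22.9, 39.2 and 30.02 CPM and had the highest ratios of the 13, 0.75 and 0.38. Eno1 and Eno3 thus lay on opposite sides of the control. Ldhb, another lactate dehydrogenase subunit, was at 113, 141 and 138 CPM, above the control at 6 h when Ldha was below it. Tigar, which lowers the level of an activator of phosphofructokinase, was at 38.1, 30.2 and 30.6 CPM. Listed genes below a mean of 10 CPM went both ways. Ldhc, a further lactate dehydrogenase gene, was at 0.944, 9.33 and 3.24 CPM, from 99, 279 and 80 UMIs. Pgm2 was at 9.74, 5.25 and 6.24 CPM. Both were named after their values were seen.

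Branches that leave glycolysis gave mixed values. Of 8 pentose phosphate genes 6 were tested, with medians of 0.19 and 0.31 and 0 past 2-fold. Tkt, transketolase, stood at 202, 381 and 281 CPM and Taldo1, transaldolase, at 231, 362 and 258 CPM, both highest at 3 h, like Gapdh and Tpi1. Pgls and Pgd, of the oxidative branch, were highest at 6 h, at 300, 337 and 504 CPM and at 68.9, 79.4 and 99.9 CPM. G6pdx, the entry enzyme, was at 21.3, 19.7 and 21.1 CPM, and Rpe at 16.8, 13.4 and 10.8 CPM. All 5 serine branch genes were tested, with medians of 0.06 and 0.08. Psph, which completes serine synthesis, was the one past 2-fold, lower at 6 h, at 144, 91.2 and 68.1 CPM. Shmt2 was highest there at both times, at 103, 155 and 129 CPM, next to Shmt1 at 66.9, 84.8 and 70.7 CPM, Psat1 at 257, 255 and 288 CPM and Phgdh at 184, 192 and 165 CPM.

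Genes that take pyruvate into the mitochondrion and oxidise it had medians below 0, near those of all genes for pyruvate entry. Of 13 genes of pyruvate entry and its control 9 were tested, with medians of -0.28 and -0.09 and 0 past 2-fold. Mpc1, a subunit of the mitochondrial pyruvate carrier, was lowest at both times, at 67.9, 35.7 and 36.6 CPM, followed by Dld at 61.3, 39.4 and 37.6 CPM, while Pdha1, of pyruvate dehydrogenase, was highest at 124, 137 and 132 CPM and Pdhx was at 33.8, 34.1 and 33.3 CPM. All 19 genes of the tricarboxylic acid cycle were tested, with medians of -0.13 and -0.28. In that list Fh1, fumarase, alone passed 2-fold, lower at 6 h, at 34.7, 19.8 and 15.1 CPM. Aco1 stood at 20.2, 11.1 and 15.4 CPM and Idh3a at 76.1, 43.9 and 44.1 CPM. Idh3g was highest at both times, at 81.7, 125 and 123 CPM, with Mdh2 next at 3 h, at 278, 377 and 276 CPM, and Cs at 6 h, at 93.1, 117 and 114 CPM. Of 7 gluconeogenesis genes only Pcx and Pck2 were tested, with ratios between -0.62 and 0.19. Among those below a mean of 10 CPM, Fbp1 was at 0.839, 4.48 and 2.51 CPM, from 88, 134 and 62 UMIs. G6pc3 was at 7.98, 6.39 and 5.83 CPM. Both were named after their values were seen.

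**Figure D4:**
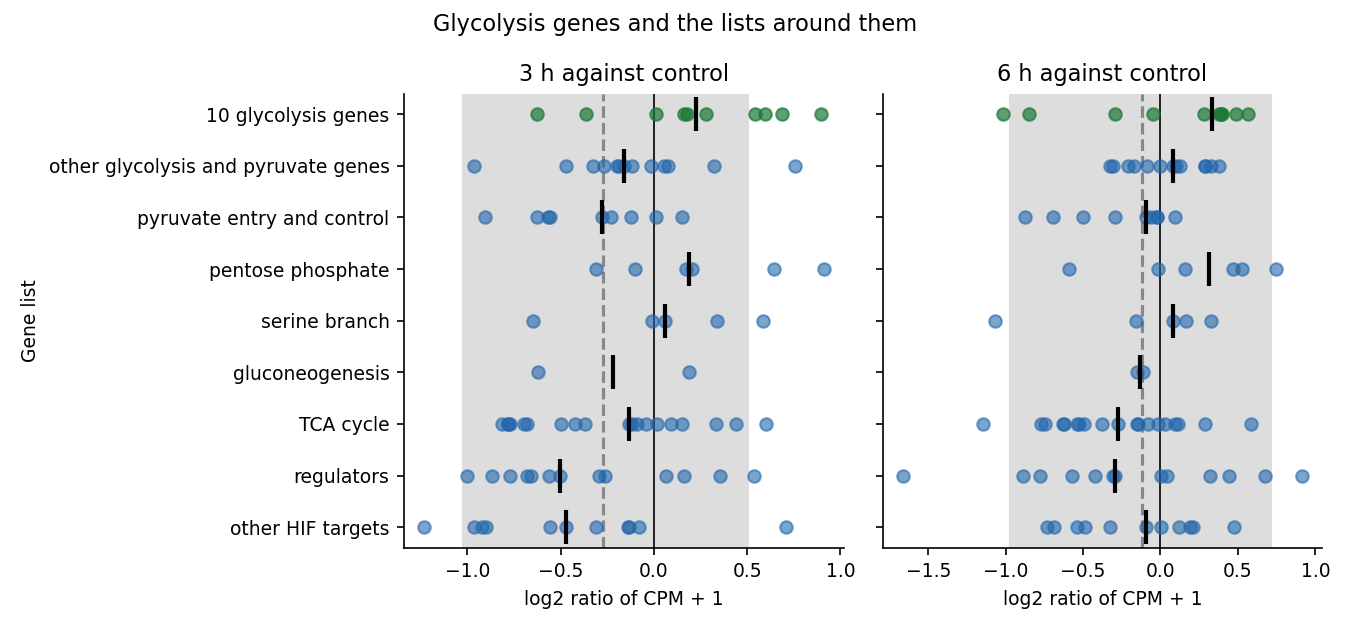
Log2 ratio of CPM + 1 to the control of the 10 glycolysis genes (green) and of the tested genes of 8 surrounding lists (blue), 1 point a gene, with each list's median (black tick), the 5th to 95th percentile of all genes tested (grey band) and their median (dashed). The green medians are 0.23 at 3 h and 0.33 at 6 h, beside -0.16 and 0.08 for the other glycolysis genes. The means of the green points are 0.24 and 0.03. In UMIs per cell 7785 of the 7884 genes tested were at least 2-fold lower at 3 h.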

How the data were processed

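Polyadenylated RNA of single cells was barcoded with 10x Genomics Chromium, per the labels' protocols. The deposited files hold unnormalized UMI counts for every gene in every barcode, without a cell filter, made by the authors on mm10 using Cell Ranger (version 7.1.0 per the file headers), per the submitters' processing notes. The annotation, and whether intronic reads counted, are not given in the sources used here. UMIs come from transcript ends. Ratios were taken between libraries for the same gene, and the parts of single genes in sums, such as that of Gapdh, are parts of the UMIs.

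A barcode was called a cell when its UMIs reached 1/10 of the 99th percentile among the top 3000 barcodes, with 500 or more genes detected and no more than 20% of UMIs from mitochondrial genes. The mitochondrial limit took out 0, 7 and 1 barcodes. The lowest UMI number allowed was 11034, 2961 and 2107 in the control, 3 h and 6 h. Doublets were not called; cells above 2 times the median UMIs were left out in an alternative. UMI counts were summed over cells, scaled to CPM and compared as log2 ratios of CPM + 1, with exact conditional binomial intervals for ratios without the pseudocount and exact Poisson intervals for levels. With 1 library a group no test was run. At 0 UMIs a level of up to 0.0286, 0.100 and 0.122 CPM is allowed, 3 counts in each case. Free RNA was read from barcodes ranked between 5000 and 15000 by UMIs. The statistics were tested on simulated data.

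Alternatives covered the cell minimum, the mitochondrial limit, cells with many UMIs, 5 other scalings (including TMM factors from edgeR 4.0.16), equal weight for each cell, thinning, free RNA, near-identical copies, the pseudocount and the filter. In UMIs per cell, values were put on the scale of the control's CPM. Genes were named by rule: the 10 members, the 2 highest and 2 lowest tested genes of each list in each comparison with the control, and the 5 other genes with the highest r over control cells. The members and lists were chosen with earlier results of these data known. Identities came from GENCODE M21 (GRCm38) and promoters from RefSeq. Versions were scipy 1.17.1, numpy 2.4.6, pandas 2.3.3 and matplotlib 3.10.9 under Python 3.11.15.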

Additional observations from a re-analysis of the deposited data

Results flagged for a closer look

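Pgk1 was the 1 gene of the 10 whose log2 ratio to the control had counting intervals on opposite sides of 0 at the time points, 0.18 at 3 h and -0.048 at 6 h. The difference between the time points was not tested. Under median-of-ratios and TMM factors the signs were the same, and in UMIs per cell both values were negative, at -1.84 and -2.63.

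Barcodes ranked between 5000 and 15000 by UMIs, which lie outside the called cells and hold free RNA, also carried the glycolysis genes. The 10 genes took 0.699% of their UMIs at 3 h and 0.593% at 6 h, above the 0.393% of the control. In the called cells the shares were 0.821%, 0.676% and 0.556%, so free RNA held a smaller share in each library. The 10 genes had median log2 ratios of free RNA to cells of -0.48, -0.26 and -0.22 in the control, 3 h and 6 h. All genes had medians of -0.25, -0.40 and -0.36, so the 10 genes lay below them only in the control. The part of free RNA in the values of the cells was not tested beyond the subtraction given with the processing alternatives.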

How the results depend on the processing

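No paired analysis was possible because each condition was 1 library; for the same reason no replicate could be left out. A ratio was counted as reversed when its sign changed and its counting interval excluded 0, which leaves out Ldha at 3 h (0.01, but -0.01 with equal weight for each cell and -2.01 in UMIs per cell). Apart from UMIs per cell, the alternatives reversed 4 of 375 single-gene ratios. These were Aldoa and Pgam1 between 6 h and 3 h, at -0.11 and -0.13 under median-of-ratios factors and at -0.11 and -0.12 under TMM factors. The 2 factors moved the median of all genes by -0.22 and -0.21 there, beside CPM ratios of 0.12 for Aldoa and 0.10 for Pgam1. Which scaling lies nearer to the RNA of the cells was not tested. UMIs per cell, which carry the depth, reversed the 3 h ratios of Gpi1 (-1.33), Aldoa (-1.86), Tpi1 (-1.46), Gapdh (-1.13), Pgk1 (-1.84), Pgam1 (-1.75) and Pkm (-1.43), the 6 h ratios of Gpi1 (-2.09), Aldoa (-2.32), Tpi1 (-2.18), Gapdh (-2.22), Pgam1 (-2.22) and Pkm (-2.04), and those of 6 h to 3 h for Aldoa (-0.46) and Pgam1 (-0.48). The median of the 10 genes became -1.79 at 3 h, -2.27 at 6 h and -0.78 between them. It was 0.20 at 3 h with equal weight for each cell and 0.38 at 6 h with thinned cells. Median-of-ratios factors gave 0.47 at 3 h and -0.44 for 6 h to 3 h, and TMM factors 0.42 and -0.43.

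Genes of the 10 past 2-fold numbered 1 higher at 3 h under median-of-ratios and under TMM factors, 0 lower at 6 h with thinned cells, and, in UMIs per cell, 10 lower at 3 h, 10 lower at 6 h and 1 lower between them. Among all genes, the numbers higher and lower at 3 h were 139 and 166 under median-of-ratios factors, 126 and 202 under TMM factors, 6 and 7785 in UMIs per cell, 22 and 95 at a mean of at least 50 CPM and 226 and 855 without a filter. Calls in UMIs per cell at 6 h numbered 6 and 7818, at 50 CPM 42 and 75, and without a filter 679 and 707. For 6 h to 3 h they were 57 and 45 under both factors, 5 and 173 in UMIs per cell, 23 and 4 at 50 CPM and 389 and 33 without a filter, with 23 lower after free RNA was subtracted and 20 lower with a pseudocount of 0.1 CPM. The higher share of calls, 13.8% at 3 h, 34.6% at 6 h and 90.8% between them, became 45.6%, 37.0% and 55.9% under median-of-ratios and 38.4%, 30.3% and 55.9% under TMM factors.

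The summed share of the 10 genes was 0.558, 0.550, 0.564, 0.546 and 0.573% in the control with the UMI minimum doubled, equal weight for each cell, free RNA subtracted, thinned cells and no mitochondrial genes. At 3 h it was 0.835, 0.789, 0.834, 0.812 and 0.850% in the same order, 0.815% with the minimum halved, 0.830% at a mitochondrial limit of 10% and 0.817% without cells of many UMIs. At 6 h it was 0.672% with the minimum halved, 0.668% with equal weight and 0.696% without mitochondrial genes. Another filter on low levels moved 33 of 60 percentiles of single genes. Leaving out Gapdh, chosen after seeing the data, gave 0.317, 0.376 and 0.361%.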

Other observations

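Regulators of glycolysis and other targets of hypoxia-inducible factors lay mostly below the control at 3 h, as did 72.6% of all genes tested. Of 17 regulators 13 were tested, with median log2 ratios of -0.50 at 3 h and -0.30 at 6 h, against -0.27 and -0.12 for all genes. Hif1a, the oxygen-regulated subunit of the factor, stood at 125, 68.3 and 93.4 CPM in the control, 3 h and 6 h. Txnip, which restrains glucose uptake, was at 57.5, 28.2 and 33.1 CPM, just past 2-fold lower at 3 h. Mycn, a MYC family gene, had the lowest 6 h ratio of the tested genes, -1.66, at 20.9, 12.7 and 5.92 CPM, and Egln1, an enzyme that marks HIF1 for removal, was at 21.0, 12.9 and 10.9 CPM. Myc itself stood at 16.2, 3.41 and 2.71 CPM, from 1696, 102 and 67 UMIs, with log2 ratios of -1.96 and -2.21, lower than any tested regulator. Its mean was below 10 CPM, so it is not among the 13, and it was named after its values were seen. The highest ratios were those of Lin28a, at 51.2, 74.6 and 82.1 CPM, and Esrrb, at 102, 131 and 193 CPM.

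Of 22 other HIF targets 11 were tested, 1 of them (Hk2) also in the list of other glycolysis genes and 1 (Pdk1) in that of pyruvate entry. Their medians were -0.47 at 3 h and -0.09 at 6 h. Ddit4, an inhibitor of growth signalling, was the one past 2-fold, lower at 3 h, at 16.8, 6.59 and 10.0 CPM. Bnip3, a mitophagy gene below the mean of 10 CPM and likewise named after its values were seen, stood at 12.7, 4.95 and 6.81 CPM. Listed targets below that mean went both ways. Vegfa was at 7.98, 4.72 and 3.52 CPM, while Ndrg1 was at 2.01, 5.45 and 4.54 CPM and Ak4 at 3.70, 7.76 and 6.00 CPM. P4ha1, of collagen hydroxylation, was at 18.3, 9.37 and 10.6 CPM. Mif, a cytokine gene, had the highest ratios of the 11 tested genes at both times, 0.71 and 0.48, at 1037, 1695 and 1443 CPM. Higd1a was at 208, 196 and 240 CPM. Per cell these genes carry the same difference in depth as the glycolysis genes.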
